A study of Mus musculus with 12 samples.

Results

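The cytosolic ribosomal protein genes were examined in sorted mouse thymocytes. Members were the entries of the non-normalized array table whose symbol is Rpl or Rps followed by a digit, or Rplp0, Rplp1, Rplp2 or Rpsa, without the Rps6k kinases and Rps27l. This gave 63 of 18138 genes, 36 named for the large and 27 for the small ribosomal subunit. Of these, 56 encode core ribosomal proteins, 6 are paralogs (Rpl3l, Rpl7l1, Rpl22l1, Rpl36al, Rpl39l and Rps4y2) and 1, Rps19bp1, encodes a protein that binds a ribosomal protein and is no part of the ribosome.

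The 12 arrays held RNA of thymic T cells positive for both CD4 and CD8, taken from C57BL6/J mice of 8 to 12 weeks, males and females mixed 50/50 per the labels. The cells were sorted as positive or negative for CD71, the transferrin receptor, and the titles of all samples give a low forward scatter gate. Wild-type mice were Caph2+/+. Mutant mice were Caph2nes/nes, which the design text describes as the I15N change in Caph2 (Ncaph2), the kleisin subunit of condensin II. The labels name no transgene or Cre. The study compared genotypes within a surface phenotype. Each of the 4 groups had 3 arrays, and the labels do not say whether samples came from separate animals or pools, so a p-value reflects how these samples vary, and that variation may be technical only.

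Each ribosome joins a large subunit, where peptide bonds form, to a small subunit, where the message is decoded. Ribosomal proteins are made in matched amounts, and most of their messages begin with a run of pyrimidines, the terminal oligopyrimidine (TOP) tract, through which growth signals set their translation. In the mouse thymus, Rpl22 is required for alpha-beta T cells to develop, and thymocytes make many ribosomes when they enlarge and divide.

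The sequences around the annotated starts were searched for runs of pyrimidines. A run found near the start, termed a tract here, need not be one with which the message begins. RefSeq promoters of build GRCm38.p6 were given for 51 of the 63 members. The 9 windows below belong to 7 genes that differed between the sorted subsets in at least 1 genotype with a RefSeq promoter (Rpl4, Rpl27a, Rpl13a, Rplp0, Rpl35, Rps2 and Rpl23) and to the paralog pair Rpl22 and Rpl22l1. Each runs 5′ to 3′ on the gene's strand from 40 bases before the start to 20 bases into the transcript, and capitals mark a run of at least 7 C or T letters that reaches the bases from 10 before to 15 after the start.
Rpl4, chr9:64173347-64173406, plus strand: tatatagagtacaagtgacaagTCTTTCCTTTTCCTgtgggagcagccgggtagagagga
Rpl27a, chr7:109519155-109519214, plus strand: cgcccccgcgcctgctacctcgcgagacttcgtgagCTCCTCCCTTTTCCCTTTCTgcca
Rpl13a, chr7:45128726-45128785, minus strand: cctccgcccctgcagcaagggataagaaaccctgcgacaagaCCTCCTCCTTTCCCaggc
Rplp0, chr5:115559427-115559486, plus strand: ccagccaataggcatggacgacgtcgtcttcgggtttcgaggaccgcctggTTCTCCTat
Rpl35, chr2:39005112-39005171, minus strand: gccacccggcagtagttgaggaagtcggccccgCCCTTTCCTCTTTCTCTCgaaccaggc
Rps2, chr17:24720023-24720082, plus strand: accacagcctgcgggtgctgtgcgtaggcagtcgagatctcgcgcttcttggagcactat
Rpl23, chr11:97782420-97782479, minus strand: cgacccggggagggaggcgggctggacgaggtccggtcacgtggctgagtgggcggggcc
Rpl22, chr4:152325686-152325745, plus strand: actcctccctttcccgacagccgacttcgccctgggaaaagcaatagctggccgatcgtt
Rpl22l1, chr3:28805468-28805527, plus strand: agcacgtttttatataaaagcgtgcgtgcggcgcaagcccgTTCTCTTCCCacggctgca

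Tracts of this kind were found in 26 of the 51 member promoters (51%), against 22.2% of 27025 promoters with 1 start per gene. They were 7 to 21 letters long with a median of 10, and 60% of the 25 large-subunit and 45% of the 20 small-subunit core members with a promoter held one. Of these 26 tracts, 12 lay over the annotated start base. That of Rpl4 ended before this base and that of Rplp0 began after it. Rps2 and Rpl23, which differed between the subsets in both genotypes, had none in these windows. Rpl4, Rpl27a, Rpl13a and Rplp0, which also differed in both, had one each. Over the 250 bases before and 50 after the start, searched on both strands, CCGGAAG (the core bound by ETS factors) occurred in 39.2% of member promoters and 9.12% of all promoters. AAGATGGC (YY1 core) occurred in 5.88% and 2.88%, TATAAA in 9.8% and 14.2%, and CACGTG (an E-box) in 9.8% and 7.24%. The 5 member promoters with CACGTG were all of large-subunit genes. These are matches of letters only, the end of CCGGAAG can overlap the start of AAGATGGC, and annotated starts may differ from those used in thymocytes.

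Signal was read as normalized log2 intensity, and a gene counted as detected on an array at a detection p under 0.05. Of the 63 members, 44 were detected on all 12 arrays and 3 (Rpl39l, Rpsa and Rps23) on none. Genes detected on at least 3 arrays were tested, which took in 55 members and left out Rpl6, Rpl7l1, Rpl14, Rpl17, Rpl39l, Rps4y2, Rps23 and Rpsa. A table with 1 entry per gene does not show whether its probe can also bind a near-identical copy or a processed pseudogene, of which ribosomal protein genes have many. Members filled 10 to 15 of the 50 brightest places on each array. Rplp1, a protein of the acidic stalk that recruits translation factors, held the highest value that quantile normalization can give, 13.31, on 4 arrays, so differences upward from there cannot be seen. Rplp2, its partner in the stalk, lay at 5.39 to 5.44 on every array and was detected on 3, and Rpl41 reached rank 2 on an array.

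Detection did not always follow signal. Rpl37 had a signal of 427 to 2234 but was detected on 4 arrays. Among members, 7 were at or above the 80th percentile of signal on an array that did not detect them (Rpl4, Rpl7l1, Rpl27a, Rpl37, Rplp0, Rps19 and Rps27a), and so were 10.9% of the 4758 genes that reached that percentile on any array. The normalized values of these genes are given as measured, with the number of arrays that detected them.

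Arrays had mean signals of 95.1 to 203 and detected 5893 to 7415 genes and 46 to 56 members each. Tfrc, which encodes CD71, was higher in CD71-positive cells by 1.15 ± 0.28 (log2, SE, adjusted p = 0.014, limma) in wild type and 1.30 ± 0.28 (adjusted p = 0.0068) in mutant. Ncaph2 differed between genotypes by -0.11 ± 0.16 without CD71 and -0.04 ± 0.16 with it (adjusted p = 0.90 and 0.998), which checks nothing for a missense change. Of 10 markers of double-positive thymocytes 9 were detected and Cd8a was not, and their summed signal was lower in CD71-positive cells (6790 to 8687 in wild type and 6066 to 6326 in mutant) than in CD71-negative cells (15710 to 16750 and 13810 to 14860). The summed signal of 9 myeloid and dendritic markers moved the other way, from 240.2 to 240.8 on wild-type CD71-negative arrays to 304.3 to 410.7 on CD71-positive ones, and from 254.4 to 264.9 to between 432.2 and 1740 in the mutant. At an adjusted p under 0.05 (limma), 0 of the 5 myeloid markers tested were higher in wild type and 4 in the mutant (Lyz, Lyz2, Cd74 and H2-Ab1). Csf1r, Itgam and Emr1 differed by -0.019 to 0.024 between subsets, and Lyz1 and Itgax of that list were detected on no array. Of the 9 double-positive markers tested, 6 passed as lower in wild type and 7 in the mutant, while Ptcra was higher in wild type (0.13 ± 0.038, adjusted p = 0.032). Sums of 5 erythroid markers (130.7 to 138.5) and 5 stromal markers (128.9 to 138.2) were alike in all groups. Sums of 4 B-cell markers ran from 106.8 to 124, and sums of 4 natural killer markers stayed at 105.4 to 114.3 except for 185.2 on mutant CD71-negative array 1. Of these lists 0, 1, 1 and 2 genes were detected on at least 3 arrays, so the sums lie mostly at the floor of the scale and their likeness shows little. Cd79b, the B-cell gene so detected, was lower in mutant CD71-positive than CD71-negative cells (-0.29 ± 0.065, adjusted p = 0.0099, limma). The part of these differences in the results on ribosomal genes was not tested. In bulk RNA, fewer cells of a type and less RNA per cell cannot be told apart.

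In wild-type thymocytes, 13 members were higher in the CD71-positive subset and 1 was lower (limma on all 12 arrays, Benjamini-Hochberg adjusted p under 0.05, here termed called). Over all 8247 genes tested, 12.0% were called higher and 13.1% lower. Those higher included Rps2, Rps27a, Rpl4, Rpl13a, Rps15, Rpl35, Rpl12, Rpl30, Rpl19, Rpl28, Rpl27a and Rplp0, at log2 differences of 1.56 down to 0.29. Rpl23 was lower. The median difference over all 63 members was 0.26, and 47 of the 55 tested lay above 0. The median over all 18138 genes was -0.0019, near 0 as quantile normalization tends to make it. Of all 8247 genes tested, 3776 lay above 0. Within groups, the median of the members on an array had a pooled SD of 0.37, larger than 0.26. The test called 9 of 36 large-subunit genes higher and 1 lower, and 4 of 27 small-subunit genes higher and 0 lower.

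Rps2, a small-subunit protein near the channel where the message enters, stood at 10.56, 10.69 and 9.79 in the 3 wild-type CD71-negative samples and at 11.88, 11.97 and 11.88 in the CD71-positive samples. All CD71-positive arrays lay above all CD71-negative arrays. The difference was 1.56 ± 0.28 on the log2 scale, 2.96-fold (adjusted p = 0.0029). In mutant cells Rps2 stood at 11.54, 10.88 and 10.54 without CD71 and at 12.15, 12.35 and 12.09 with it. The groups again did not overlap, and mutant CD71-negative array 1 was the highest of its group. That difference was 1.21 ± 0.28, or 2.31-fold (adjusted p = 0.010).

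Rpl4, a large-subunit protein that lines the tunnel through which the new chain leaves, was at 6.07, 5.94 and 6.14 in wild-type CD71-negative cells and at 7.30, 6.94 and 7.15 in CD71-positive cells. In the mutant it was at 6.15, 6.27 and 6.28 without CD71, where 1 of the 3 arrays detected it, and at 7.38, 7.58 and 7.61 with CD71. No array of a CD71-negative group reached those of the CD71-positive group in either genotype. The Rpl4 differences were 1.08 ± 0.098 (wild type, adjusted p = 6.6e-05) and 1.29 ± 0.098 (mutant, adjusted p = 2.0e-05), the smallest p among members in both. In the authors' processed values they were 0.71 and 0.82, and still called.

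Rps27a encodes ubiquitin fused to a small-subunit protein, so that its message serves both the ribosome and the ubiquitin pool. Its values in wild type were 5.77, 5.76 and 5.88 without CD71 and 7.29, 6.98 and 6.85 with it, a difference of 1.24 ± 0.15 (adjusted p = 2.9e-04). The mutant values were 6.03, 5.87 and 6.15 without CD71 and 7.97, 7.95 and 7.51 with it. Subsets did not overlap in either genotype, and the highest 3 of the 12 values were those of mutant CD71-positive cells. The mutant difference was 1.795 ± 0.15 (adjusted p = 3.0e-05), a measured 3.47-fold between log2 means of 6.02 and 7.81. None of the mutant CD71-negative arrays and 1 of 3 mutant CD71-positive arrays detected the gene, so the size of this difference is uncertain.

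Rpl23 went the other way. This large-subunit protein, which faces the small subunit and is also known to bind Mdm2 when free, was at 12.12, 12.12 and 11.88 in wild-type CD71-negative cells and at 11.20, 11.28 and 11.35 in CD71-positive cells. Mutant cells had 11.86, 11.78 and 11.97 without CD71 and 11.23, 11.32 and 11.30 with it. The CD71-positive arrays lay below the CD71-negative arrays in both genotypes, and Rpl23 had the smallest spread within groups of the 44 members detected on all arrays (pooled SD 0.096, against a median of 0.25 and a highest value of 0.52 for Rpl18). In wild type it fell by 0.76 ± 0.075 (adjusted p = 9.9e-05), and in the mutant it fell by 0.59 ± 0.075 (adjusted p = 4.0e-04). With arrays scaled to equal medians in place of quantile normalization it fell by 0.32 in wild type, and neither call held (adjusted p = 0.495 and 0.296), and the mutant call was also lost with cyclic loess.

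Rpl35, a protein at the exit of the tunnel, rose in wild type from 10.43, 10.57 and 10.25 to 11.37, 11.09 and 11.11, by 0.78 ± 0.16 (adjusted p = 0.0056). Rps15, in the head of the small subunit, rose from 8.45, 8.37 and 8.13 to 9.47, 8.78 and 9.18, by 0.83 ± 0.19 (adjusted p = 0.012). Neither gene overlapped between the wild-type subsets. In the mutant neither was called, at 0.32 ± 0.16 and 0.32 ± 0.19. Rpl35 had 11.23, 10.81 and 10.88 against 11.48, 11.39 and 11.01, and Rps15 had 9.32, 9.02 and 8.88 against 9.55, 9.51 and 9.13. There the arrays of the subsets overlapped for both. The genotype difference of the subset difference was not called for either (Rpl35 -0.45 ± 0.22, adjusted p = 0.91; Rps15 -0.51 ± 0.27, adjusted p = 0.93).

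**Figure D1:**
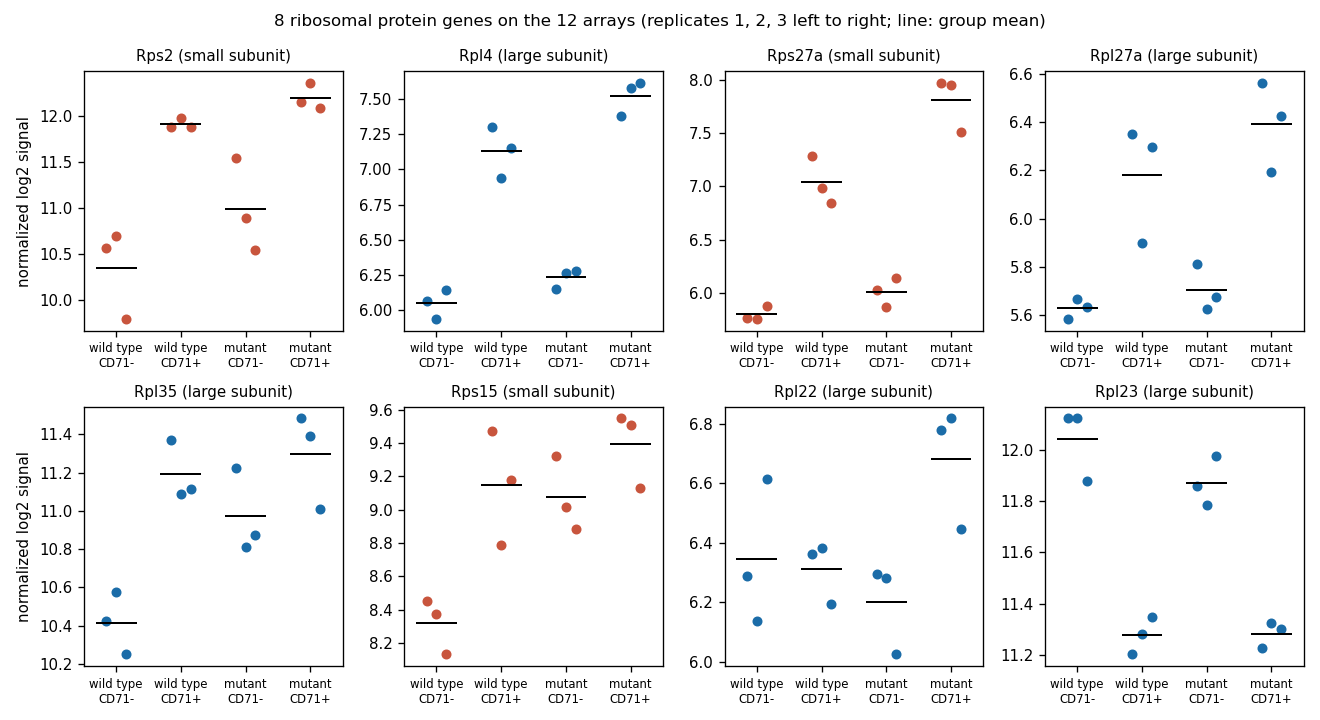
Normalized log2 signal of 8 members on each of the 12 arrays, with 1 point per array, the 3 arrays of a group from left to right and a line at the group mean; the vertical axes differ between genes. CD71-positive arrays lie above CD71-negative arrays for Rps2, Rpl4, Rps27a and Rpl27a and below them for Rpl23 in both genotypes, and for Rpl22 the subsets separate in the mutant and overlap in wild type.

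In mutant thymocytes, 14 members were higher and 1 lower in CD71-positive cells, where 14.5% of all tested genes were called higher and 14.3% lower. Those higher included Rps27a, Rpl4, Rps2, Rpl13a, Rpl29, Rps25, Rps26, Rpl27a, Rpl3, Rpl22, Rplp0 and Rps4x, at 1.79 down to 0.39. Large-subunit genes made up 7 of the 14 and small-subunit genes the other 7, and Rpl23 was again the one lower. The median over all 63 members was 0.084, against -0.00054 over all 18138 genes, and 40 of the 55 tested lay above 0. Of all 8247 genes tested, 3762 lay above 0. Arrays of Rps25 overlapped between the subsets despite the call, as those of Rpl30 did in wild type. The mutant calls of Rpl29 and Rps25 were each lost in 9 of the 12 fits that leave out 1 array.

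Both genotypes had 7 higher members in common (Rps2, Rps27a, Rpl4, Rpl13a, Rpl27a and Rplp0 among them). These were 53.8% of those called in wild type and 50% of those called in the mutant. The share of calls in common was not counted over all tested genes, so these shares cannot be called particular to the members. The comparisons share no arrays but share each gene's estimate of the spread. Rpl27a, a large-subunit protein, was at 5.58, 5.67 and 5.63 against 6.35, 5.90 and 6.30 in wild type, and at 5.81, 5.63 and 5.67 against 6.56, 6.19 and 6.43 in the mutant. It rose by 0.56 ± 0.13 (adjusted p = 0.011) and 0.69 ± 0.13 (adjusted p = 0.0030) with no overlap, although 3 of the 12 arrays detected it and none of these was a wild-type CD71-positive one. Rplp0, the base of the acidic stalk, was at 5.49, 5.52 and 5.50 against 5.91, 5.71 and 5.77 in wild type, and at 5.52, 5.54 and 5.54 against 6.02, 5.78 and 6.19 in the mutant. It rose by 0.29 ± 0.089 (adjusted p = 0.040) and 0.46 ± 0.089 (adjusted p = 0.0040), close to the floor of the scale, where the added offset understates change. The wild-type Rplp0 call was lost in 9 of the 12 fits that leave out 1 array and under 4 of 10 alternatives.

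Rpl13a, which is released from the ribosome of human myeloid cells after interferon, was at 6.79, 7.25 and 6.54 against 8.00, 7.78 and 7.56 in wild type. In the mutant it was at 7.94, 6.88 and 7.23 against 8.85, 8.57 and 8.16. It rose by 0.93 ± 0.29 (adjusted p = 0.047) and 1.17 ± 0.29 (adjusted p = 0.015), and its subsets did not overlap in either genotype. The wild-type call was lost under 6 of 11 alternatives and the mutant call under 3, and leaving out 1 array lost them in 8 and 2 of 12 fits.

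The wild-type count depended on single arrays: 7 members were called higher without wild-type CD71-negative array 3, 6 without wild-type CD71-positive array 1 and 6 without wild-type CD71-positive array 3. The mutant count fell from 14 to 9 without wild-type CD71-positive array 3, to 7 without mutant CD71-negative array 2 or 3, to 5 without mutant CD71-positive array 1 and to 7 without mutant CD71-positive array 2, the array with the highest myeloid sum; without mutant CD71-negative array 3, 2 members were lower, Rpl23 and Rps9. Rps2, Rpl4, Rps27a and Rpl23 kept their calls in both genotypes whichever single array was left out, as did Rpl35 and Rps15 in wild type and Rplp0 in the mutant. Rpl27a, detected on 3 arrays, was no longer tested when 1 of these was left out. With arrays scaled to equal medians in place of quantile normalization, 2 members were called higher in wild type (Rps2 and Rps26) and 1 in the mutant (Rps2), none lower. Rps2 was the one member kept in both genotypes under that scaling and under each of the other alternatives.

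**Figure D2:**
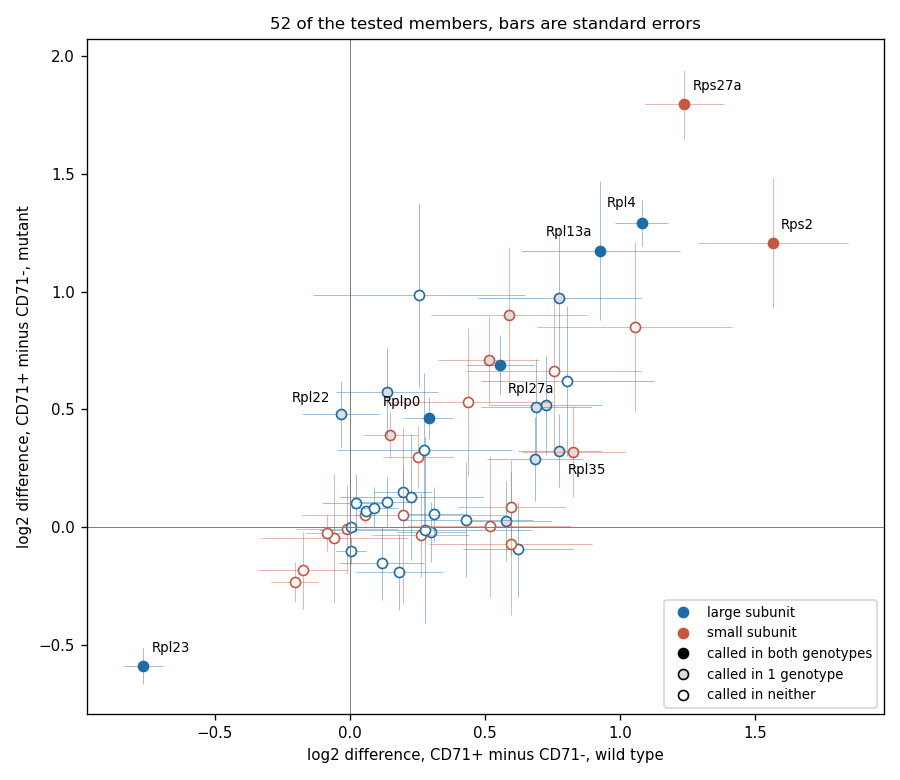
Log2 difference between CD71-positive and CD71-negative cells in wild type (horizontal) and mutant (vertical) for 52 of the 55 tested members, with standard errors as bars, blue for the large and red for the small subunit. Rps2, Rps27a, Rpl4 and Rpl13a lie to the upper right, and Rpl23 lies alone at the lower left, at -0.76 and -0.59.

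Members called in the mutant alone included Rpl22, Rpl3, Rpl29, Rps4x, Rps25 and Rps26, and no member passed the test of a difference between the genotypes. Rpl22 was at 6.29, 6.14 and 6.61 in wild-type CD71-negative cells and at 6.36, 6.38 and 6.19 in CD71-positive cells. In the mutant it was at 6.30, 6.28 and 6.02 without CD71 and at 6.78, 6.82 and 6.45 with it. The mutant subsets did not overlap and the wild-type subsets did. The Rpl22 difference was -0.03 ± 0.14 for wild type (adjusted p = 0.88) and 0.48 ± 0.14 for mutant cells (adjusted p = 0.031). The mutant call was lost under 7 of 11 alternatives, with a value of 0.092 with arrays scaled to equal medians (adjusted p = 0.885), and in 4 of the fits that leave out 1 array. In these the array left out was number 2 or 3 of the mutant CD71-negative group, or number 1 or 2 of the CD71-positive one. The genotype difference of the Rpl22 subset difference, 0.51 ± 0.20 with a 95% interval of 0.064 to 0.96, was not called (adjusted p = 0.84). Its paralog Rpl22l1, which Rpl22 is known to repress in the mouse, ran at 5.39 to 5.76 over the 12 arrays and was detected on 7. Its subset differences were 0.09 ± 0.087 in wild type and 0.08 ± 0.087 in mutant, and neither was called.

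The other paralog pairs also differed in how they were measured. Rpl3, which reaches the peptide-forming centre, ran at 11.03 to 11.97 and was called higher in mutant CD71-positive cells by 0.57 ± 0.19 (adjusted p = 0.048). The Rpl3 call was lost in 8 of the 12 fits that leave out 1 array and under 6 of 11 alternatives. Rpl3l, a form known from heart and skeletal muscle, ran at 5.39 to 5.68 and was called in no comparison. Rpl36a ran from 7.94 upward with a mean of 9.26 and Rpl36al up to 11.54 with a mean of 11.32, and neither was called in any comparison. Rpl36al varied less within groups (pooled SD 0.14) than Rpl36a (0.42). Rpl39 ran at 9.95 to 11.23, and Rpl39l, known from testis, was detected on no array. Levels of different genes are not compared here, since each probe has its own brightness.

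Rps6, the small-subunit protein that S6 kinases phosphorylate, was at 10.54, 10.60 and 9.87 against 10.90, 11.37 and 10.996 in wild type and at 11.14, 10.11 and 9.87 against 11.17, 11.10 and 10.84 in the mutant. The wild-type subsets did not overlap, yet the difference of 0.75 ± 0.32 was not called (adjusted p = 0.13), and the mutant difference was 0.66 ± 0.32 (adjusted p = 0.17). Rps19, whose human counterpart is mutated in Diamond-Blackfan anaemia, differed by 1.05 ± 0.36 (adjusted p = 0.062) and 0.85 ± 0.36 (adjusted p = 0.11). At the dim end, Rps15a ran at 5.57 to 5.91 on the 12 arrays, all of which detected it.

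Large and small subunit genes had higher means in the same groups. Over the 23 large and 21 small members detected on all arrays, the mean normalized log2 value of the large-subunit genes was 9.95 ± 0.19 (SD, n = 3) in wild-type CD71-negative cells, 10.32 ± 0.12 in wild-type CD71-positive, 10.29 ± 0.18 in mutant CD71-negative and 10.56 ± 0.18 in mutant CD71-positive cells. The small-subunit means in the same order were 9.98 ± 0.16, 10.37 ± 0.079, 10.33 ± 0.20 and 10.62 ± 0.18. Large minus small was -0.033 ± 0.076, -0.048 ± 0.040, -0.049 ± 0.071 and -0.069 ± 0.018. The range of these 4 means was smaller than the SD pooled over the groups, 0.056, and larger than the SD within mutant CD71-positive cells. Without the members among the brightest 50 genes of any array, however, the change of large minus small between subsets turned from -0.015 to 0.059 in wild type and from -0.020 to 0.14 in the mutant. Over the 44 members, the ranges over arrays overlapped, from -0.093 to 0.052 in wild-type CD71-negative cells and from -0.089 to -0.055 in mutant CD71-positive cells. The value compares sets of probes, so its size in 1 group has no meaning.

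Arrays of a group differed for many members at once. Wild-type CD71-negative array 3 was the lowest of its group for 30 of the 44 members detected on all arrays, mutant CD71-negative array 1 the highest of its group for 32, and mutant CD71-positive array 3 the lowest of its group for 35. The large-subunit mean was 9.75 on wild-type CD71-negative array 3, 10.49 on mutant CD71-negative array 1 and 10.35 on mutant CD71-positive array 3. Their mean signals were 180, 136 and 173. Mutant CD71-negative array 1 also had the high sum of natural killer markers named above. Whether these features share a source was not tested.

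**Figure D3:**
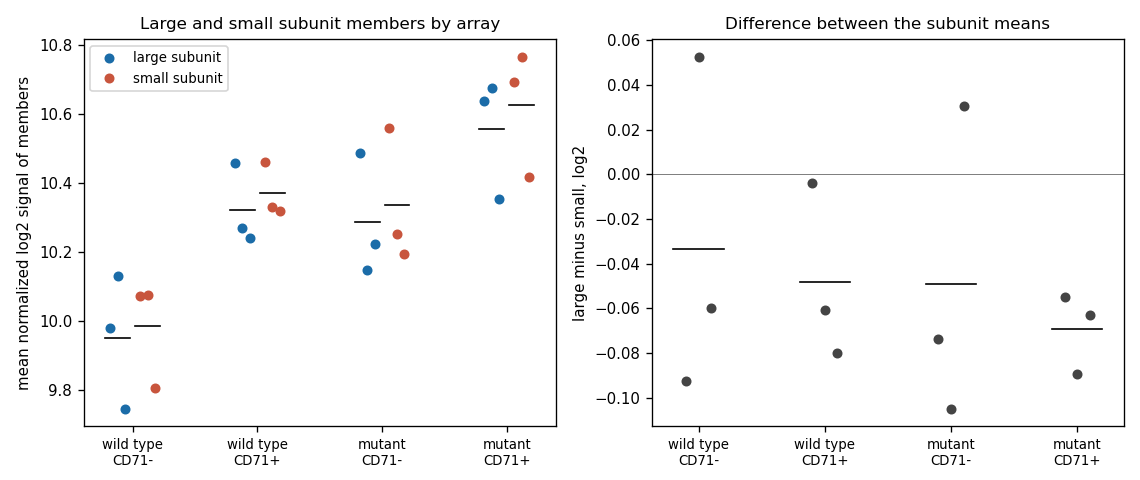
Left, the mean normalized log2 signal of the 23 large-subunit (blue) and 21 small-subunit (red) members on each array, by group, with lines at group means; right, large minus small for each array. Both subunits are lowest in wild-type CD71-negative cells and highest in mutant CD71-positive cells, and their difference stays between -0.10 and 0.05.

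Between genotypes no member was called in either subset, and most members were measured above 0. In CD71-negative cells 0 of 63 were called by limma, against 0.424% of all tested genes. Of the 55 tested members 19 had an unadjusted p under 0.05, as did 859 of all 8247 genes tested. The median mutant minus wild-type difference over all 63 members was 0.21, against -0.0011 over all 18138 genes, and 47 of the 55 tested lay above 0. Of all 8247 genes tested, 4078 lay above 0. For 16 members the 3 mutant arrays all lay above the 3 wild-type arrays, 29.1% of those tested, and for 0 all lay below. Over all genes tested, 7.53% were separated upward and 6.98% downward. Arrays of a group differed for many members at once, so members are not independent in these counts. Within groups, the median of the members on an array had a pooled SD of 0.37, larger than 0.21. Of the 16, 10 were large-subunit and 6 small-subunit genes. Giving each array an estimated weight called 6 members higher and 1, Rpl23, lower. Rplp1 was called higher without wild-type CD71-positive array 1 and Rpl34 without wild-type CD71-positive array 2, arrays which enter this comparison through the shared spread.

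The smallest p in CD71-negative cells belonged to Rplp1, at 12.66, 12.77 and 12.62 in wild type and 13.31, 13.31 and 13.08 in mutant. The groups did not overlap, and 2 of the mutant arrays were at the ceiling of the scale. The difference was 0.55 ± 0.13 (adjusted p = 0.13). Rps15 was at 8.45, 8.37 and 8.13 against 9.32, 9.02 and 8.88, a difference of 0.76 ± 0.19 (adjusted p = 0.15). Rpl39, one of the shortest ribosomal proteins, was at 10.005, 10.52 and 9.95 against 10.74, 11.09 and 10.94, a difference of 0.76 ± 0.20 (adjusted p = 0.18). Neither gene overlapped between genotypes. Rps16 had the widest measured difference, 9.62, 10.13 and 9.37 against 10.88, 10.85 and 10.40, which is 1.01 ± 0.30 with a 95% interval of 0.33 to 1.69 (adjusted p = 0.23). Rpl35 differed by 0.56 ± 0.16 (adjusted p = 0.20). Among the smallest p below 0 were those of Rpl23, Rpl3, Rpl22 and Rps4x, at -0.17, -0.29, -0.15 and -0.08.

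In CD71-positive cells 0 of 63 members were called, again against 0.424% of all tested genes. Of the 55 tested members 7 had an unadjusted p under 0.05, as did 705 of all 8247 genes tested. The median difference over all 63 members was 0.18, against -0.00057 over all 18138 genes, and 51 of the 55 tested lay above 0. Of all 8247 genes tested, 3866 lay above 0. For 10 members all mutant arrays lay above all wild-type arrays, 18.2% of those tested, and for 0 below, against 7.25% and 7.35% of all genes tested. Members are not independent in these counts either, and 0.18 is also below the pooled SD of 0.37. Rps27a had the smallest p, at 7.29, 6.98 and 6.85 in wild type and 7.97, 7.95 and 7.51 in mutant, without overlap. Its difference was 0.77 ± 0.15 (adjusted p = 0.069), with a 95% interval of 0.44 to 1.10. The next were Rpl4 at 0.39 ± 0.098 (adjusted p = 0.20), Rpl22 at 0.37 ± 0.14 (adjusted p = 0.46), Rpl13a at 0.74 ± 0.29 (adjusted p = 0.48) and Rps13 at 0.32 ± 0.13 (adjusted p = 0.53), and none of these overlapped. The 4 members below 0 were Rpl28 at -0.11, Rps6 at -0.05, and Rps19bp1 at -0.0068 and Rpl38 at -0.0089. Array weights called 1 member, Rps27a, higher, and the same gene was called higher without wild-type CD71-positive array 1 or mutant CD71-positive array 3.

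**Figure D4:**
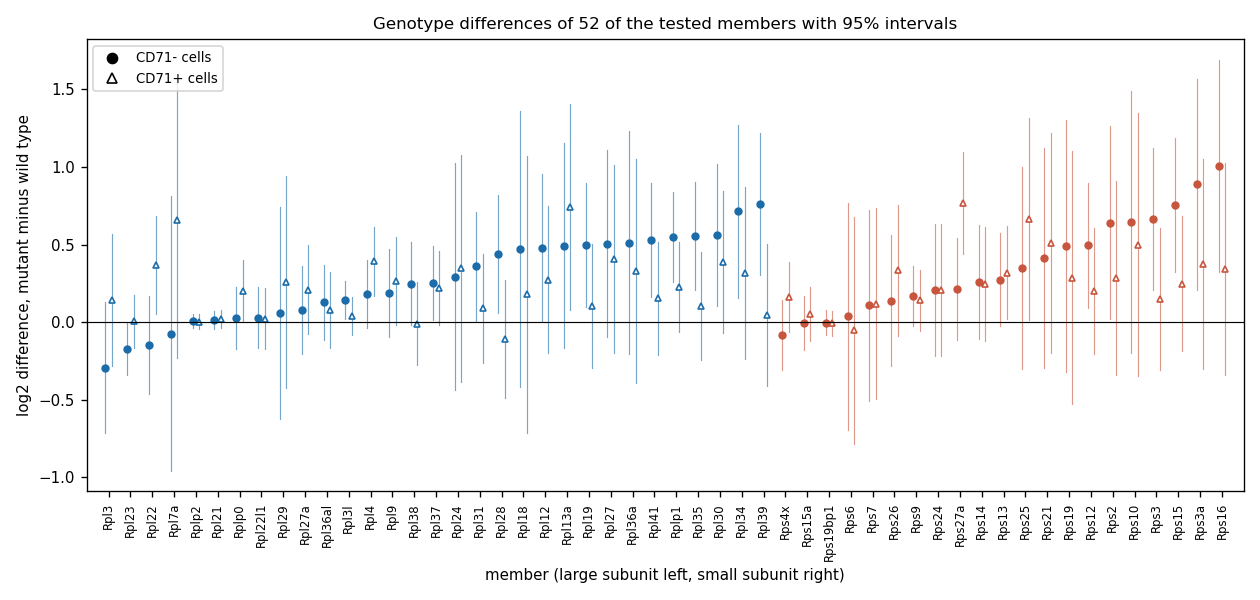
Mutant minus wild-type log2 differences of 52 of the 55 tested members with 95% intervals, in CD71-negative cells (filled circles) and CD71-positive cells (open triangles), large subunit in blue at left and small subunit in red at right, each in order of the CD71-negative value. Most points lie above 0, the medians over all 63 members are 0.21 and 0.18, and no member passes the adjusted threshold.

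The genotype difference did not differ between the subsets for any member at the adjusted threshold, where 0.0121% of all tested genes did. By limma 0 members were called. Of the 55 tested members 4 had an unadjusted p under 0.05, as did 466 of all 8247 genes tested. The 4 members were Rps27a (0.56 ± 0.21, adjusted p = 0.77) and Rpl22 above 0, and Rpl39 (-0.71 ± 0.29, adjusted p = 0.85) and Rpl28 (-0.55 ± 0.24, adjusted p = 0.88) below 0. The median over all 63 members was -0.0036. The 95% interval for Rpl39 ran from -1.36 to -0.065.

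Calls were also counted by the letters around the start, as a description. Of 26 members with a tract, 7 were called higher in wild-type and 6 in mutant CD71-positive cells. Of 25 with a promoter and no tract, 3 were higher and 1 lower in each genotype. The medians over these 26 and 25 members, tested or not, were 0.30 with and 0.20 without a tract in wild type, and 0.052 and 0.11 in the mutant. Of the 20 with an ETS core, 4 were higher in each genotype, as were 6 and 5 of the 31 without, besides Rpl23, which was lower.

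Genes that serve the ribosome were called higher between subsets in part. Of 16 tested genes of ribosome assembly and rRNA processing (23 in the table), 9 were higher in wild-type and 13 in mutant CD71-positive cells and none was lower. Among them, Nol5 (Nop58), a protein of the guide complexes that methylate rRNA, rose by 1.94 ± 0.18 (adjusted p = 6.5e-05) and 2.37 ± 0.18 (adjusted p = 1.9e-05). Gnl3 (nucleostemin) rose by 1.32 ± 0.18 (adjusted p = 5.8e-04) and 1.70 ± 0.18 (adjusted p = 1.2e-04). Ncl, nucleolin, rose by 0.85 ± 0.15 and 1.27 ± 0.15 (adjusted p = 0.0027 and 2.4e-04). Ebna1bp2, a nucleolar factor for the large subunit, was the one gene of the list called between genotypes, higher in mutant CD71-positive cells by 0.49 ± 0.068 (adjusted p = 0.025).

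Of 12 tested translation factors and other genes with TOP messages (13 in the table), 3 were higher in wild type (Nap1l1, Eef1b2 and Npm1) and 4 in mutant (the same genes and Eef1g), and none was lower. Nap1l1, a histone chaperone, rose by 1.86 ± 0.090 (adjusted p = 1.7e-06) and 1.93 ± 0.090 (adjusted p = 1.3e-06). Eef1b2, which reloads elongation factor 1A, rose by 1.04 ± 0.12 (adjusted p = 2.8e-04) and 0.77 ± 0.12 (adjusted p = 0.0014). Medians over the 13 genes were 0.30 and 0.15. Gnb2l1 (Rack1), a scaffold protein of the small subunit that the symbol rule leaves out, did not pass the test at 0.15 ± 0.098 and 0.11 ± 0.098 (adjusted p = 0.31 and 0.47). None of 8 tested genes of the Rps6k kinases and TOR signalling (13 in the table) was called in any comparison. Frap1, Rheb and Tsc1 of that list were detected on 0, 2 and 2 arrays and not tested.

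Of 5 genes of the p53 checkpoint that free ribosomal proteins act on, Rps27l, a p53 target in human cells, rose in CD71-positive cells of both genotypes, by 1.78 ± 0.20 (wild type, adjusted p = 2.0e-04) and 1.47 ± 0.20 (mutant, adjusted p = 5.0e-04). Mdm2 fell by 0.49 ± 0.16 in mutant CD71-positive cells (adjusted p = 0.046). Between genotypes Rps27l was not called, at 1.01 ± 0.20 without CD71 (adjusted p = 0.069) and 0.70 ± 0.20 with it (adjusted p = 0.26).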

How the data were processed

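RNA from 12 sorted samples was amplified, biotin-labelled and read on 1-colour arrays. The deposited non-normalized table gives signal intensity and a detection p-value per gene symbol and array, per the file headers. The sources used here do not give how probes were combined by symbol. A second table holds intensity values processed by the authors, by RMA per the submitters' processing notes, and served as an alternative.

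Background was corrected by the neqc function of limma 3.58.1 under R 4.3.3, which adds an offset of 16, quantile-normalizes and takes log2. Genes that 3 or more arrays detected (detection p under 0.05) entered 1 linear model with 4 group means over all 12 arrays (lmFit and eBayes without trend, two-sided, Benjamini-Hochberg over 8247 genes). Values are log2 differences ± SE unless an SD is named. The number of arrays limits the precision. The fit was tested on simulated data in which genes varied independently, unlike these arrays, where many members deviated together.

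Members, gene lists and tests were chosen with earlier results of these data known. Named genes are the members called in a comparison, the 5 smallest p in a direction with fewer calls, stalk proteins, Rps6, paralog pairs, undetected, brightest and dimmest members, and up to 4 genes of each other list. Rps19, Rps15a, Rpl37, Rpl18, Rps9 and Rpl34 were named after their values were seen. Not every pair of same-numbered arrays of different groups deviated together (18 pairs, correlation of deviations -0.41 to 0.59, median 0.27, 11 over 0.1), so numbers were not used as pairs. Lists missing from the table or promoters without a RefSeq entry were not analysed here. Some members enter the counts and medians but are not reported here by name.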

Additional observations from a re-analysis of the deposited data

How the results depend on the processing

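Counts of called members depended on the processing. In wild type the 13 higher members became 8 with cyclic loess and 8 with no filter on dim genes. In the mutant the 14 higher members became 9 with no filter, 9 when only the 2 groups compared were fitted and 30 with array weights. With equal medians the higher members numbered 2 in wild type and 1 in the mutant, and the lower members 0 in both. In the mutant the lower count was 0 with cyclic loess, 3 with array weights and 2 with array brightness as a covariate, an alternative chosen after seeing the data. The authors' values gave 2 lower in wild type, Rpl23 among them. Array weights also gave 6 higher and 1 lower between genotypes in CD71-negative cells and 1 higher in CD71-positive cells. Leaving out the dimmest array and the array highest in myeloid markers together, also chosen after seeing the data, left 7 higher in wild type and 6 in the mutant. The cause of these changes was not tested.

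With the replicate block, 2 members were lower in wild type and 2 in the mutant (Rpl23 and Rps9 in both), and no other member count moved by over 1.5 times. The numbers were not taken to pair the samples, since same-numbered arrays did not all deviate together.

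Leaving out 1 array at a time gave 6 to 15 higher members in wild type, 5 to 17 higher and 1 to 2 lower in the mutant, and 0 to 1 higher between genotypes in each subset. Medians over members ran from 0.18 to 0.32 in wild type, 0.063 to 0.18 in the mutant, 0.11 to 0.28 between genotypes in CD71-negative and 0.12 to 0.27 in CD71-positive cells, and with the other alternatives from 0.18 to 0.54, 0.063 to 0.21, 0.064 to 0.41 and 0.12 to 0.26.

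Large minus small, without members among the brightest 50 genes of any array, moved to 0.059 between wild-type subsets, 0.14 between mutant subsets, -0.090 between genotypes in CD71-negative cells and 0.078 for the difference of genotype differences.

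Values of small size changed sign. With equal medians these included Rps9 (0.30) and Rps14 (0.29) between wild-type subsets, Rpl23 (0.056) and Rps4x (0.20) between genotypes in CD71-negative cells, and Rps4x (-0.072) and Rpl23 (-0.10) for the difference of genotype differences. With cyclic loess they were Rps19bp1 (0.0049), Rps6 (0.069) and Rpl38 (0.036) between genotypes in CD71-positive cells. With array weights they were Rpl41 (0.064) between mutant subsets, Rpl22 (0.0091) between genotypes in CD71-negative cells, and Rps19bp1 (0.013) and Rps6 (0.086) in CD71-positive cells. Rps4x (0.029) in CD71-negative cells did so without both arrays named above. Without 1 array, Rps4x ran from -0.19 to 0.027 between genotypes in CD71-negative cells, and Rps19bp1 from -0.040 to 0.029, Rps6 from -0.14 to 0.090 and Rpl38 from -0.067 to 0.043 in CD71-positive cells.

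Signal near background limits Rplp0, Rpl27a, Rpl22l1, Rpl3l, Rplp2 and Rps15a, and the ceiling of quantile normalization limits Rplp1 and Rpl41.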
